A study of Mus musculus with 8 samples.

Results

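The mevalonate pathway enzymes that lead from acetyl-CoA to squalene were read from a table of 27179 genes, in which 9 were chosen by symbol: Acat2, Hmgcs1, Mvk, Pmvk, Mvd, Idi1, Fdps, Ggps1 and Fdft1. All 9 had a row and all 9 passed the filter on low counts, among 13364 genes tested. The RNA came from a murine acute myeloid leukaemia with the oncogenic fusion protein MLL-AF9, whose cells also carry GFP (green fluorescent protein) under a ubiquitin control element and luciferase under the β-actin promoter. The cells came from 1 terminally ill mouse, were grown in culture, and were injected into unconditioned male mice of 8 to 10 weeks labelled WT. They were sorted back from crushed bones as viable GFP-positive cells at the peak of the response to chemotherapy. Every mouse had received 5+3, namely 5 daily doses of cytarabine (100 mg/kg), the first 3 of them together with doxorubicin (3 mg/kg). The groups were 5 libraries from mice on a standard amino acid diet and 3 from mice on a diet free of the branched-chain amino acids leucine, isoleucine and valine (BCAA). Because all libraries come from leukaemia of 1 donor mouse and from treated animals, the comparison is of the 2 diets under chemotherapy only. The labels write the second group as BCAA, and the series text gives it as the BCAA-free diet.

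The pathway starts when a thiolase joins acetyl-CoA units to acetoacetyl-CoA and a synthase adds another to give HMG-CoA, which is reduced to mevalonate. A pair of kinases and a decarboxylase turn mevalonate into isopentenyl pyrophosphate, the building block of all isoprenoids. These blocks are joined to farnesyl pyrophosphate, from which squalene synthase opens the route to cholesterol, while another synthase lengthens it to geranylgeranyl pyrophosphate, the lipid that anchors many small GTPases in membranes. Genes of this pathway are known to be driven by the sterol-sensing transcription factor SREBP2, which binds DNA together with the CCAAT-binding factor NF-Y. Leukaemia cells, like other dividing cells, are known to draw on both arms, for membranes and for protein prenylation.

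RefSeq promoter windows (GRCm38.p6) were at hand for 7 of the 9 genes, in 8 windows since Pmvk has 2 start sites. Those of Hmgcs1, Mvk and Idi1 are shown because these had the most negative fold changes of the genes with a window, though only Idi1 was called. Each is the 250 bases before the start site given in the RefSeq promoter table, 5′ to 3′ on the gene's strand. A gene can have further starts upstream of that site: the last 5 bases of the Mvk window, 78 bases of the Ggps1 window and all 250 of the downstream Pmvk window (the latter windows not printed) lie inside the RefSeq gene. Capitals mark CCAAT on either strand (ATTGG when read on the gene's strand), and in Hmgcs1 also TCACNCCA, a core of the sterol regulatory element bound by SREBP. The Hmgcs1 window lies at chr13:119690101-119690350 (plus strand), that of Mvk at chr5:114444019-114444268 (plus) and that of Idi1 at chr13:8885356-8885605 (plus).
Hmgcs1: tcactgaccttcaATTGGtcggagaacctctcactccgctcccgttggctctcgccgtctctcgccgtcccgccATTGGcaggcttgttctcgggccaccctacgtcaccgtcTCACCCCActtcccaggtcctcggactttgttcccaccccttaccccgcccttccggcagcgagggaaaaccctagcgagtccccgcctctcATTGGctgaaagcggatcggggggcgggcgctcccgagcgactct
Mvk: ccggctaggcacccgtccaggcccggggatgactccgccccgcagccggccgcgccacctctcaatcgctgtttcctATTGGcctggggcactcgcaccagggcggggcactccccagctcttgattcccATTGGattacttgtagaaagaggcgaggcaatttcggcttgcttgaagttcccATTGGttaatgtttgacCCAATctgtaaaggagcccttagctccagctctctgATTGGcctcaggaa
Idi1: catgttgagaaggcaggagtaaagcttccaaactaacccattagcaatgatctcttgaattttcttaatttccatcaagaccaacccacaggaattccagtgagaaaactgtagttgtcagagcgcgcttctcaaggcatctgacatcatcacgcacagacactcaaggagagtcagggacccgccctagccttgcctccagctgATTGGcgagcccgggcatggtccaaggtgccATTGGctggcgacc

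Of the 7 genes with a window, 6 had at least 1 CCAAT, against 33.8% of the 32851 windows of the same length in the table. Mvk held 5, Hmgcs1 and Ggps1 3 each, Mvd and Idi1 2 each, Pmvk 1 in 1 of its windows, and Acat2 none. At least 3 were found in 2.79% of all windows. The core TCACNCCA, searched on both strands, was in Hmgcs1 alone among these genes, starting 137 bases before the start site, and in 3.67% of all windows. The motifs did not overlap each other. These are matches of letters and no measure of binding. The Mvk gene begins 209 bases from Mmab, a cobalamin adenosyltransferase gene read in the opposite direction, so the window printed for Mvk is longer than the gap and takes in the start of Mmab. Mmab did not pass the test (log2 fold change 0.02, adjusted p = 0.970).

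Of the enzymes 3 changed, all downward, and they sit next to each other at the end of the route to squalene. Fdps, the farnesyl pyrophosphate synthase, fell 2.00-fold (95% interval 1.61 to 2.49). Idi1, the isomerase that makes the reactive partner of isopentenyl pyrophosphate, fell 1.68-fold (1.33 to 2.13), and Fdft1, the squalene synthase, fell 1.68-fold (1.32 to 2.15). None of the other 6 passed, and the one with a positive value was Ggps1, the geranylgeranyl pyrophosphate synthase. Thus 3 of 9 were called lower in edgeR's quasi-likelihood test, where 0.539% of all tested genes were, and none was called higher, where 0.217% were. The median log2 fold change of the 9 was -0.43, against 0.02 over all tested genes. In bulk RNA fewer cells of a type and less RNA per cell cannot be told apart.

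The count of called members moved with the method, and so did the share of all genes called lower. DESeq2 called 4 members (1.85% of all genes), as did edgeR with no filter on low counts (0.858%), Hmgcs1 being the fourth. With RLE factors 2 were called (0.456%) and with library totals alone 2 (0.367%). Fdps alone was called with upper-quartile factors (0.382%), in limma-voom (0.367%) and without robust dispersion (0.389%). With 1 library left out, 1 or 2 members were called, beside 0.213% to 0.552% of all genes.

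**Figure D1:**
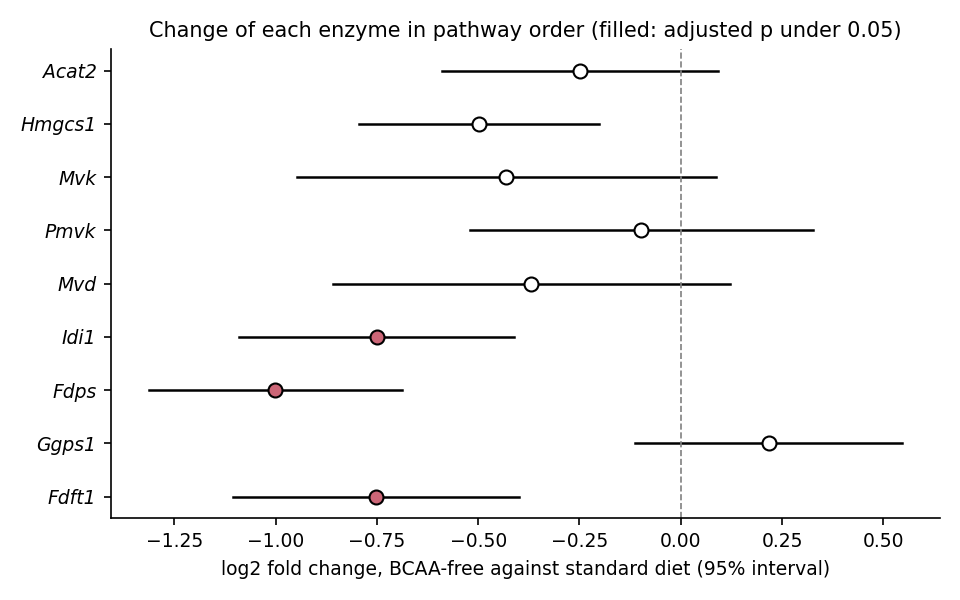
Log2 fold change of each enzyme on the BCAA-free diet against the standard diet (x axis), in pathway order from top to bottom, with its 95% interval as a line; filled points had an adjusted p under 0.05 in edgeR. Idi1, Fdps and Fdft1 are filled and are the 3 leftmost points, with Fdps at -1.0, and Ggps1 is the point to the right of 0.

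The first step belongs to Acat2, the cytosolic acetoacetyl-CoA thiolase (chromosome 17, 12943042 to 12960725, GRCm38.p6). Levels are given as CPM, counts-per-million values scaled by TMM library factors. On the standard diet Acat2 was at 37.9, 31.0, 42.9, 46.6 and 36.6 CPM in replicates 1 to 5, and on the BCAA-free diet at 26.4, 33.2 and 38.7 CPM in replicates 1 to 3. The groups overlapped: BCAA-free replicate 3 stood above 3 of the standard-diet libraries. The log2 fold change was -0.25 (SE 0.16, adjusted p = 0.528). Of the 38-base words in Acat2 transcripts of GENCODE M21, 41.8% also occur in another gene's transcripts, nearly all of them in the neighbouring paralog Acat3, so that reads of 38 bases may be shared between them. Acat3 itself was low, at 4.68 ± 1.09 CPM (SD, n = 5) and 5.96 ± 0.659 CPM (SD, n = 3), and did not pass (log2 fold change 0.34, adjusted p = 0.635). Acat3 in turn overlaps Tcp1, a chaperonin subunit on the opposite strand, which was at 717 ± 98.1 and 719 ± 97 CPM.

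Hmgcs1, the cytosolic HMG-CoA synthase (chromosome 13, 119690351 to 119708260), had one of the higher levels of the set and came closest to the threshold among the genes that missed it. It was at 69.4, 67.9, 95.7, 78.2 and 89.1 CPM on the standard diet and at 63.2, 59.4 and 47.7 CPM on the BCAA-free diet. None of the BCAA-free libraries reached the lowest standard-diet library, although BCAA-free replicate 1 lay close to it. An annotated antisense transcript, Gm48342, overlaps 12.1% of its exon bases. The log2 fold change was -0.50 (SE 0.14, 95% interval -0.79 to -0.20, adjusted p = 0.117). It passed in DESeq2 (adjusted p = 0.0414) and without a filter on low counts (0.0382), and in none of the 8 fits that each left out a library.

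The steps that follow, from mevalonate to isopentenyl pyrophosphate, had no member that passed. Mvk, the mevalonate kinase (chromosome 5, 114444264 to 114460591), was at 11.7, 9.99, 9.76, 12.8 and 10.5 CPM on the standard diet and at 10.1, 4.93 and 9.29 CPM on the BCAA-free diet. Its difference rests on BCAA-free replicate 2, with 91 counts (95% Poisson interval 73.3 to 112, for counting error only). Without that library the log2 fold change went from -0.43 (SE 0.24, adjusted p = 0.463) to -0.18 (adjusted p = 0.799), the other 2 libraries being within or just below the standard-diet range. Pmvk, the phosphomevalonate kinase (chromosome 3, 89454541 to 89469014), was at 14.9, 12.7, 14.5, 9.72 and 10.8 CPM and at 12.5, 12.0 and 10.7 CPM, with all BCAA-free libraries inside the standard-diet range. Its log2 fold change of -0.10 had a 95% interval from -0.52 to 0.33 (adjusted p = 0.878). Mvd, the decarboxylase that closes this stretch (chromosome 8, 122433596 to 122443422), was at 12.0, 9.02, 16, 10.3 and 10.5 CPM and at 6.97, 9.37 and 10.4 CPM. Its groups overlapped, with 1 high standard-diet library (replicate 3) and 1 low BCAA-free library (replicate 1), and the log2 fold change was -0.37 (95% interval -0.86 to 0.12, adjusted p = 0.516). For these 3 genes the intervals reach from a fall of the size seen in Idi1, or, for Pmvk, from a smaller fall, to a slight rise, so a difference was not detectable at this number of libraries.

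Idi1, the isopentenyl diphosphate isomerase (chromosome 13, 8885606 to 8892396), was at 64.8, 73.5, 107, 74.6 and 90.0 CPM on the standard diet and at 47.7, 57.3 and 41.1 CPM on the BCAA-free diet. All 3 BCAA-free libraries were below all standard-diet ones, and standard-diet replicate 3 stood highest. The means were 81.9 ± 16.5 CPM (SD, n = 5) and 48.7 ± 8.14 CPM (SD, n = 3), and the log2 fold change was -0.75 (SE 0.16, adjusted p = 0.0415). The call lay near the threshold, and among the 8 fits that left out a library it held in 1, without standard-diet replicate 1 (adjusted p = 0.0258), and reached 0.114 without BCAA-free replicate 1. Its paralog Idi2, a muscle isoform of the same enzyme, had 2 counts in standard-diet replicate 3 and none in the other 7 libraries. Of the 38-base words of Idi1, 26.4% recur in other annotated transcripts, mostly in the processed pseudogene Gm13502 (18.1%).

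Fdps had the clearest change of the set (chromosome 3, 89093588 to 89101967). It was at 71.4, 59.2, 65.3, 65.4 and 48.8 CPM on the standard diet and at 26.7, 30.2 and 36.0 CPM on the BCAA-free diet. The lowest standard-diet library, replicate 5, was still above the highest BCAA-free library. The means were 62.0 ± 8.57 and 30.9 ± 4.69 CPM, the log2 fold change was -1.0 (SE 0.15, adjusted p = 0.00479), and by p-value the gene ranked 11th of all tested. It was called in each of the 8 fits that left out a library (log2 fold change between -0.91 and -1.13, adjusted p up to 0.0314), and in 17 of 18 alternative settings in all. Parts of Fdps recur elsewhere: 27.4% of its 38-base words are in other annotated transcripts, among them the overlapping same-strand model Gm43738 (24.2%) and the processed pseudogene Gm3571 (14.4%).

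**Figure D2:**
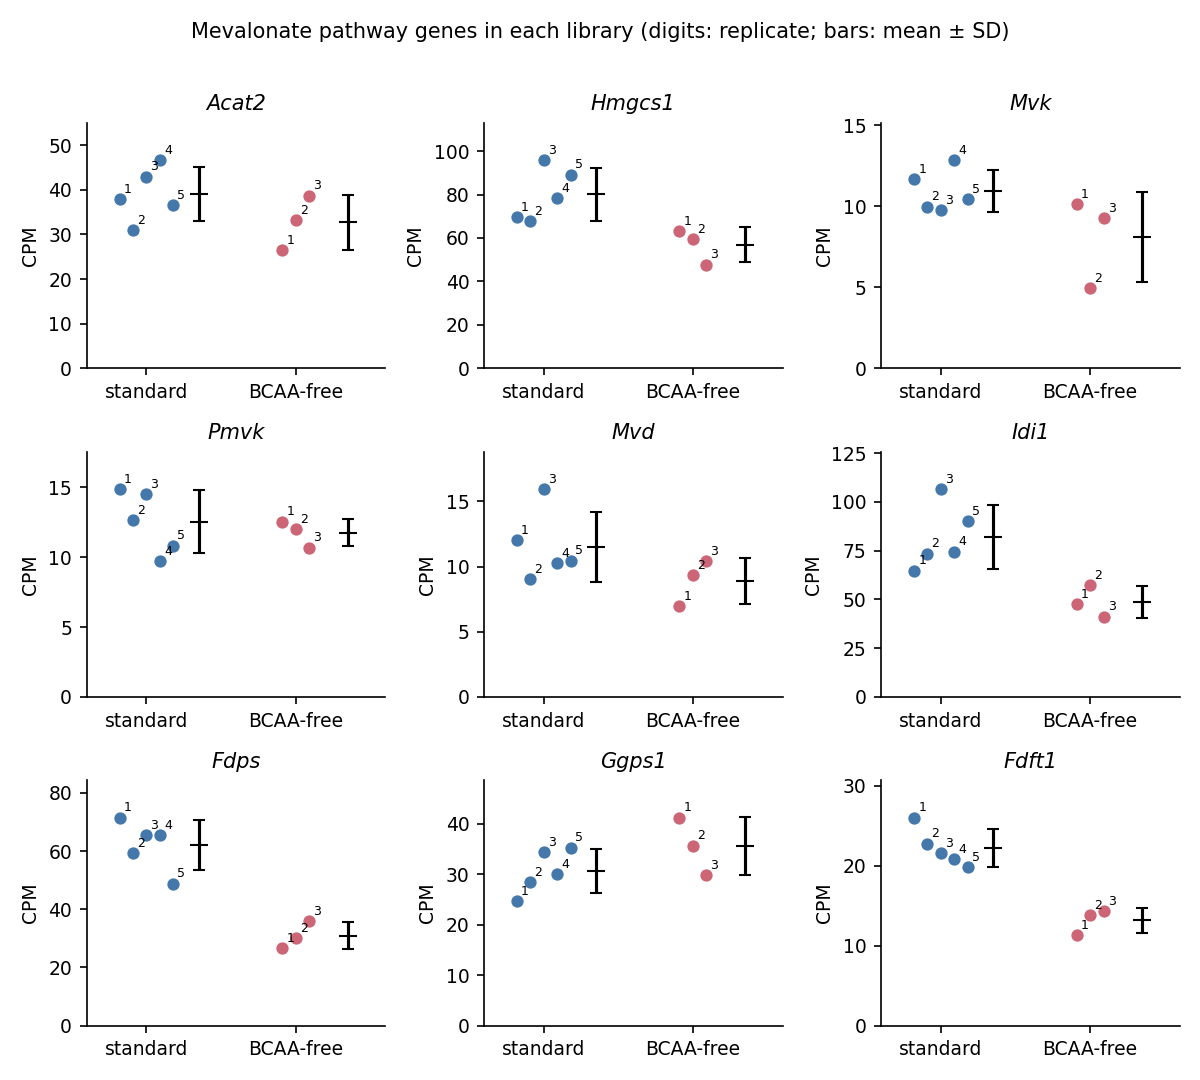
CPM (y axis, from 0) of the 9 genes in each library on the standard diet (blue, replicates 1 to 5) and the BCAA-free diet (red, replicates 1 to 3), with digits for the replicate and bars for mean and SD. Fdps, Idi1, Fdft1 and Hmgcs1 show no overlap between diets, and Ggps1 is the panel in which the BCAA-free mean is higher.

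From farnesyl pyrophosphate the pathway divides. Fdft1, the first enzyme committed to sterols (chromosome 14, 63145150 to 63181687), was at 26, 22.8, 21.6, 20.8 and 19.8 CPM on the standard diet and at 11.3, 13.8 and 14.3 CPM on the BCAA-free diet. The BCAA-free libraries lay close together and well below the others. The means were 22.2 ± 2.38 and 13.2 ± 1.61 CPM and the log2 fold change was -0.75 (SE 0.17, adjusted p = 0.0483). This call too was near the threshold, and it was lost in all 8 fits that left out a library (adjusted p from 0.0567 to 0.128), with log2 fold changes that stayed between -0.66 and -0.82. The end of Fdft1 overlaps Ctsb, which encodes the lysosomal protease cathepsin B on the opposite strand, over 18.3% of its exon bases. Ctsb was at 236 ± 13.8 and 230 ± 10.6 CPM and did not pass (log2 fold change -0.04, adjusted p = 0.905). Without a stated strand setting, reads in that stretch cannot be assigned to either gene with certainty.

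Ggps1, on the other branch (chromosome 13, 14049790 to 14063566), was at 24.7, 28.4, 34.4, 30.0 and 35.3 CPM on the standard diet and at 41.2, 35.6 and 29.8 CPM on the BCAA-free diet. Of the BCAA-free libraries, 2 were above every standard-diet library and the third was among them. The log2 fold change was 0.22 (SE 0.16, 95% interval -0.11 to 0.55, adjusted p = 0.575), so that the interval excludes a fall of the size measured for Fdps, Idi1 or Fdft1. It had a positive sign in all 18 alternative settings and passed in none. Its start overlaps Arid4b, a chromatin gene on the opposite strand, over 5.44% of exon bases. Arid4b was at 61.3 ± 6.55 and 59.1 ± 5.58 CPM.

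Whether the branches shifted unequally was asked with count ratios within each library, which need no scaling between libraries. The ratio of Fdps to Ggps1 counts was 2.89, 2.08, 1.90, 2.18 and 1.38 on the standard diet and 0.648, 0.847 and 1.21 on the BCAA-free diet, so that Fdps outnumbered Ggps1 in every standard-diet library and in 1 of the 3 others. On the log2 scale the ratio was lower by a mean of 1.22 on the BCAA-free diet (1.02 ± 0.38 against -0.20 ± 0.45). The exact two-sided permutation p, taken by doubling the smaller tail, was 0.0357, the smallest that this rule can give with 56 splits. After adjustment over the 3 ratios computed it was 0.0536, so that the ratio did not pass. The ratio of Fdft1 to Ggps1 counts was 1.05, 0.802, 0.628, 0.694 and 0.563 on the standard diet and 0.276, 0.388 and 0.482 on the BCAA-free diet, again without overlap. Its log2 mean was -0.45 ± 0.35 against -1.43 ± 0.41 (exact permutation p = 0.0357, adjusted p = 0.0536). Fdft1 to Fdps, the enzymes in series, had ratios of 0.364, 0.385, 0.331, 0.319 and 0.407 against 0.425, 0.458 and 0.399, with 1 overlapping library (log2 difference 0.25, exact permutation p = 0.0714, adjusted p = 0.0714). With this doubling of the tail, none of the 3 could fall below an adjusted p of 0.0357 in this small design. The ratios come from the same counts as the fold changes of Fdps, Fdft1 and Ggps1 given above. Their separation between diets is therefore no independent result.

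**Figure D3:**
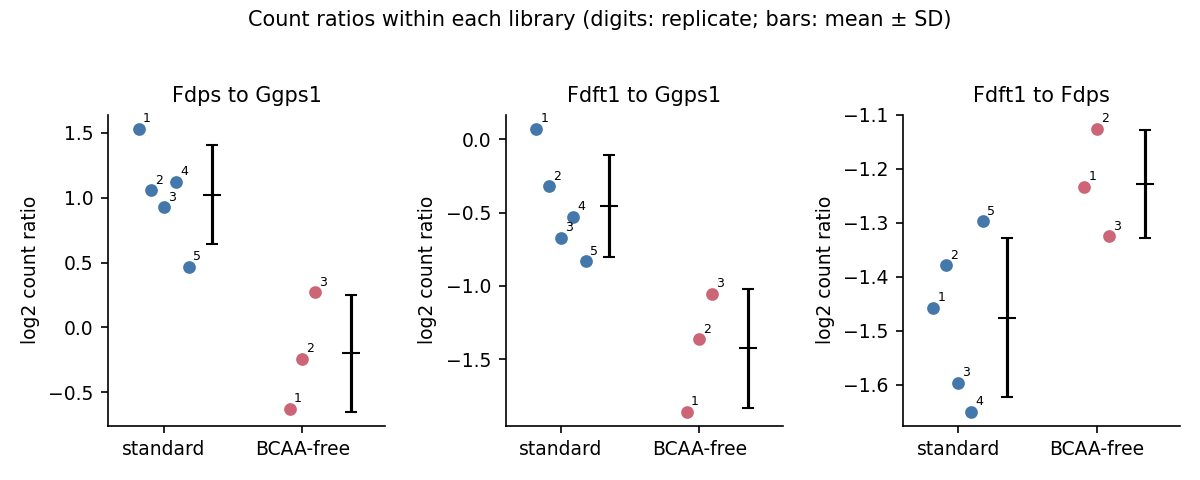
Log2 ratio of the counts of 2 genes within each library (y axis), by diet, with digits for the replicate and bars for mean and SD. The ratios of Fdps and of Fdft1 to Ggps1 do not overlap between diets, and Fdft1 to Fdps overlaps in 1 library.

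Per kilobase of exon, the scale on which different genes can be set side by side, the enzymes of the standard diet fell into an upper and a lower group. On the standard diet Idi1 was highest, at 23.4 ± 4.72 CPM per kilobase, followed by Hmgcs1 (17.4 ± 2.65), Acat2 (15.3 ± 2.37) and Fdps (14.7 ± 2.04). The lower group held Pmvk (7.31 ± 1.32), Ggps1 (6.47 ± 0.923), Mvd (6.21 ± 1.45), Fdft1 (5.25 ± 0.563) and Mvk (4.09 ± 0.482). Each gene's range overlapped that of its neighbour in this order, except at the gap between Fdps, whose lowest library was at 11.6, and Pmvk, whose highest was at 8.68. On the BCAA-free diet Fdps was at 7.35 ± 1.11 CPM per kilobase, beside Ggps1 at 7.53 ± 1.21. Both lay below a gap between Hmgcs1 (lowest 10.4) and Ggps1 (highest 8.72). It was not the only gap between neighbours in that order. Pmvk (lowest 6.24) and Mvd (highest 5.61) were also apart, as were Mvd (lowest 3.75) and Fdft1 (highest 3.39). The range of Mvk (highest 3.79) still reached that of Mvd. Lengths are those of merged GENCODE M21 exons, which may not be the ones the authors counted on.

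Within a diet the 9 genes did not rise and fall as 1 block. BCAA-free replicate 1 was the highest of its group for 4 of them (Hmgcs1, Mvk, Pmvk and Ggps1) and the lowest for 4 (Acat2, Mvd, Fdps and Fdft1). BCAA-free replicate 3, the deepest of that group, was highest for Acat2, Mvd, Fdps and Fdft1 and lowest for Hmgcs1, Pmvk, Idi1 and Ggps1. Fdps and Fdft1 thus ordered the BCAA-free libraries one way and Hmgcs1 and Ggps1 the other. On the standard diet replicate 3 was highest for Hmgcs1, Mvd and Idi1, and replicate 1, the deepest library, for Pmvk, Fdps and Fdft1. The summed level of the 9 was between 314 and 407 CPM on the standard diet and between 238 and 256 CPM on the BCAA-free diet. Of the 9 genes, 4 (Hmgcs1, Idi1, Fdps and Fdft1) had every BCAA-free library below every standard-diet one, where 4.68% of all tested genes did, and none had the reverse, where 4.17% did.

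The genes that use or feed the pathway were read from lists, each beside the median of 0.02 over all genes. Past squalene, 4 of 12 tested sterol-ring enzymes were called lower, where 0.539% of all tested genes were, and none higher, where 0.217% were. All 12 values were negative, where 6338 of the 13364 tested genes were, and the median log2 fold change was -0.31. The called enzymes included Sqle, which oxidises squalene (-1.23), Msmo1, which removes a sterol methyl group (-1.08), and Cyp51, the lanosterol demethylase (-0.97). Of 11 tested genes of sterol sensing and uptake 4 were called lower, beside the same share of 0.539%, and the median was -0.29. Among these 4 were Insig1, which retains SREBP in the endoplasmic reticulum (-1.12), and Stard4, a carrier of cholesterol (-0.92). The transcription factor gene Srebf2 was at 102 ± 10.5 CPM on the standard diet and 75.7 ± 5.16 CPM on the BCAA-free diet and did not pass (log2 fold change -0.43, adjusted p = 0.0915). It is no pick of the naming rule and was taken up after its value was seen.

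None of the lists on the isoprenoid side had a called gene in either direction, where 0.539% of all tested genes were called lower and 0.217% higher. At such low shares, the absence of calls in lists this short is no contrast with the sterol side. An unadjusted p under 0.05, counted below in either direction, was found for 13.5% of all tested genes. None of 11 prenyltransferase genes passed, with 3 at an unadjusted p under 0.05 and a median of 0.08. The smallest p there was that of Chml, an escort protein for Rab prenylation (-0.45, adjusted p = 0.184). None of 15 prenylated GTPases passed, with 2 at an unadjusted p under 0.05 and a median of -0.06, and Rap1a came nearest (-0.45, adjusted p = 0.255). None of 7 dolichol genes passed or had an unadjusted p under 0.05 (median 0.03), the nearest being Dpm1, the dolichol-phosphate mannosyltransferase (-0.16, adjusted p = 0.654). None of 12 genes for the side chains of coenzyme Q and vitamin K passed, with 2 at an unadjusted p under 0.05 and a median of 0.17. Among 6 tested genes of acetyl-CoA supply and ketone metabolism none passed, 1 had an unadjusted p under 0.05 and the median was 0.11. Differences between these lists were not tested.

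**Figure D4:**
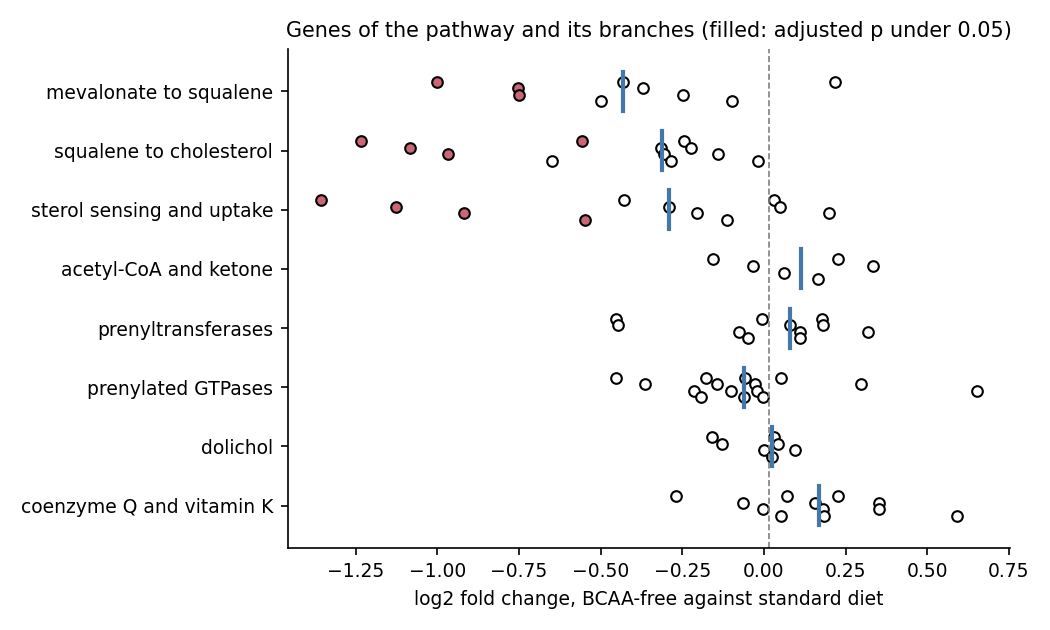
Log2 fold change (x axis) of each tested gene in 8 lists of the pathway and its branches, with filled points for an adjusted p under 0.05, blue bars for list medians and a dashed line for the median of all tested genes. Filled points, all left of the line, are in the top 3 lists, with 3, 4 and 4 of them.

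Genes outside the 9 were ranked by how closely their levels ran like the mean of the 9 over the 8 libraries. The members themselves were left out of the ranking. Likeness was the root mean square difference of log2 levels, each relative to its standard-diet mean, over 10061 non-member genes averaging 5 CPM or more, whose median difference was 0.34. The closest was Rell1, a membrane protein (0.06), at 71.3 ± 5.91 CPM on the standard diet and 52.3 ± 3.68 CPM on the BCAA-free diet. Ncaph, a condensin subunit (0.07), Arhgap19, a GTPase-activating protein (0.08), Kif14, a kinesin of cell division (0.09), and Plk4, the kinase of centriole duplication (0.09), followed within the first 10, with Sgip1, Tnfaip2, Anxa3, Hpf1 and 1 gene without a symbol. Of these 10, Plk4 and Hpf1 were called lower (adjusted p = 0.0483 for each), where 0.539% of all tested genes were. Because the 10 were picked by likeness to a mean that was lower in every BCAA-free library, these calls are no separate result. The 9 enzymes themselves were farther from their own mean, at 0.17 (Hmgcs1) to 0.44 (Ggps1).

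Library totals were between 16588662 and 38966911 counts on the standard diet and between 14851240 and 30306697 on the BCAA-free diet. The leukaemia genes Hoxa9 (175 ± 15.3 and 165 ± 24.6 CPM) and Meis1 (128 ± 11.2 and 120 ± 7.55 CPM) were present in both groups. The sum of the 7 leukaemia and myeloid identity genes was between 9143 and 11379 CPM on the standard diet and between 7177 and 8097 CPM on the BCAA-free diet, with none called. Most of that sum is Mpo, the myeloperoxidase of myeloid granules (log2 fold change -0.50, adjusted p = 0.0605). The sum of 8 mitosis genes was between 4454 and 4780 CPM on the standard diet and between 3266 and 3465 CPM on the BCAA-free diet, and 3 of the 8 were called lower, where 0.539% of all genes were. The sum of 8 immediate early genes, which respond to handling, was between 58.0 and 73.8 CPM and between 83.1 and 91.0 CPM, with none of 6 tested called. Of 7 tested B cell markers 3 were called higher, among them Cd79a and Cd79b of the B cell receptor, where 0.217% of all genes were, their list of 8 summing to between 102 and 350 CPM on the standard diet and between 146 and 309 CPM on the BCAA-free diet. Sums of 8 T and NK cell markers (4.77 to 14.3 and 6.68 to 36.1 CPM), of 7 erythroid markers (3.65 to 12.1 and 4.88 to 43.5 CPM), of 8 mature neutrophil markers (722 to 5946 and 1420 to 5816 CPM) and of 8 stroma and endothelium markers (25.7 to 46.1 and 42.6 to 63.5 CPM) overlapped. Of 4 tested stroma genes 1 was called higher, Cxcl12, beside the same share of 0.217%. The sum of 8 marrow macrophage markers did not overlap, at 295 to 395 and 217 to 290 CPM, set by Vcam1 and Adgre1, while the other 6 of its genes had positive values and none was called. Fold changes were positive for 5 of 5 tested erythroid, 7 of 7 B cell, 7 of 8 T and NK cell and 8 of 8 neutrophil markers. Over all 13364 tested genes, 6338 had a negative value. Some of these markers were near the floor on the standard diet, such as Klf1 (0.457 ± 0.314 CPM), Cd3d (0.361 ± 0.235 CPM) and Ebf1 (0.322 ± 0.315 CPM). Cd79b was at 8.79 ± 1.71 CPM on the standard diet and 22.4 ± 7.48 CPM on the BCAA-free diet. The part of differences in these values in the fall of Fdps, Idi1 and Fdft1 was not tested.

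**Figure D5:**
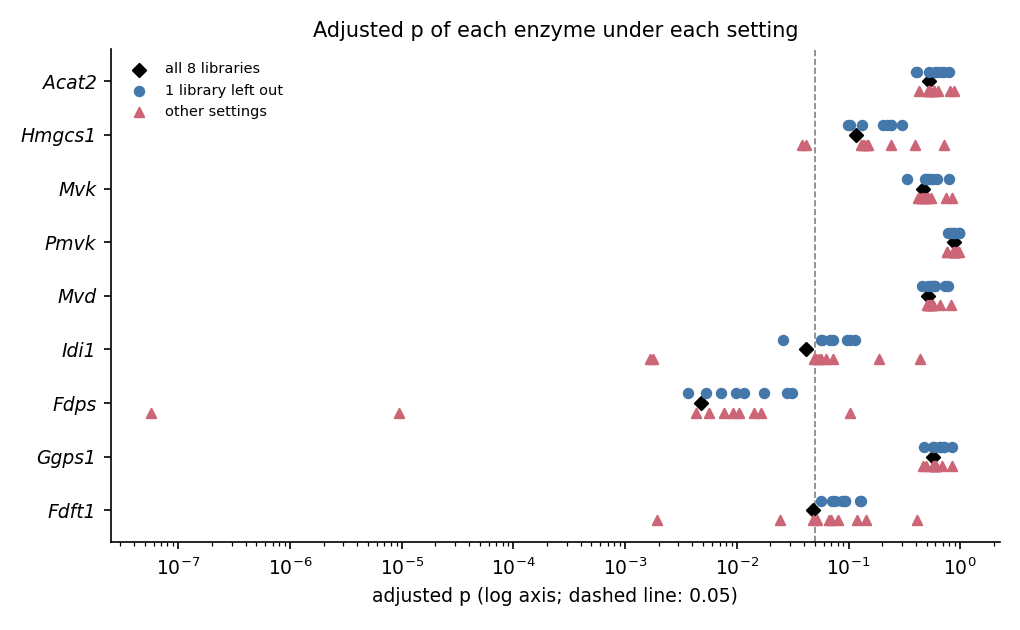
Adjusted p (x axis, log scale) of each enzyme with all 8 libraries (black), with 1 library left out (blue) and under the other settings (red), with a dashed line at 0.05. Fdps lies left of the line in 17 of 18 alternatives, Idi1 in 4 and Fdft1 in 3.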

How the data were processed

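Polyadenylated RNA was read as pairs of 38 bases, and the authors deposited raw counts per Entrez gene and library. The submitters' processing notes name mm10, featureCounts and Cell Ranger. Aligner, strand setting and treatment of multi-mapping reads: not given in the sources used here. Symbols came from the RefSeq table of GRCm38.p6 (25275 of 27179 identifiers), and the other 1904 stayed in the tests. Counts were tested with edgeR 4.0.16 (R 4.3.3): quasi-likelihood F test with robust dispersion, TMM factors, default low-count filter (minimum count 10, minimum total 15), diet as the single term, all 8 libraries, Benjamini-Hochberg adjustment over all tested genes and a threshold of 0.05. Alternatives used DESeq2 1.42.0, limma 3.58.1 (voom), other scalings, no filter and fewer libraries. Standard errors were derived from the fold change and F, and intervals are 95%. The procedure was tested on simulated data. The labels call the samples biological replicates. No pair of libraries in a group agreed within sampling noise (chi-square over its degrees of freedom: 20.3 to 66.0).

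Members and lists were chosen with earlier results of these data known. Named were the 9 members, up to 3 called genes per pathway list (otherwise that with the smallest p), overlapping or paralogous genes, and the 10 nearest profiles; some genes that the rule names are not reported here. Ratios used counts plus 0.5.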

Additional observations from a re-analysis of the deposited data

How the results depend on the processing

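The count of 3 members called lower was 2 with RLE factors and with unscaled library totals, 4 by DESeq2 (251 genes called lower) and without a filter, and 1 by limma-voom, with upper-quartile factors and without robust dispersion. It was between 1 and 2 in the 8 fits that leave out a library, with 2 only without standard-diet replicate 1, and 1 without both that library and BCAA-free replicate 3; Fdps was the gene called in each of these. Over all genes, 101 were called, against 382 by DESeq2, 64 by limma-voom, 237 without a filter, and 32 (without BCAA-free replicate 2) to 134 (without BCAA-free replicate 3) with a library left out. The 30 lost calls among the members concern Idi1, Fdft1 and, under the replicate block, Fdps, and the 2 gained concern Hmgcs1. With the replicate number as a block over replicates 1 to 3 of each diet, 0 members and 0 genes were called (edgeR, 904 at an unadjusted p under 0.05; Fdps log2 fold change -1.08, adjusted p = 0.104). The same 6 libraries without the block, a fit added after seeing the data, gave 1 and 19 calls. The samples share only a number (same-numbered deviations correlated at -0.08, -0.05 and -0.30, and none correlated best with its own number), and no other tool was run on the block. The log2 ratio differences lay between -1.45 and -1.01 for Fdps to Ggps1, -1.16 and -0.76 for Fdft1 to Ggps1, and 0.20 and 0.30 for Fdft1 to Fdps with 1 library left out. Fewer libraries leave fewer splits, so with the doubled tail no such p could be small. Directions of the 9 members were the same under all alternatives, except for Pmvk (log2 fold change 0.03 without standard-diet replicate 1 and BCAA-free replicate 3). Causes of lost calls were not tested. Member counts ran from 91 to 2805 per library.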
